A study of Mus musculus with 8 samples.

Results

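The response of mammary stem cell-enriched (MaSC) cultures to interferon-α (IFNα) was described over all genes, from the 4 arrays that measured it among 8 in the study. Both MaSC groups came from wild-type virgin mice of the strain FVB/N-J, from the fraction labelled P4, and grew as mammospheres, which are floating spheres of cells in 3D culture. Cultures were harvested after 8 days. One group of 2 samples received IFNα at 1000 U/ml, and the other group of 2 was labelled as control with no further detail. The other 4 arrays held the same treatments of the luminal progenitor (LP) fraction P5, whose titles carry the surface phenotype of P4. Animals and pools are not described, so the p-values below measure the spread between these samples, which may be technical. Values are given on the log2 scale as sample over a reference RNA from a mix of mouse cell lines, so that 0 is the level of the reference, and a difference always means IFNα minus control.

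Type I interferons bind a receptor of the chains Ifnar1 and Ifnar2, and the kinases Jak1 and Tyk2 there start the signal. A complex that holds Stat2 and Irf9 then binds interferon-stimulated response elements in promoters and switches on antiviral, antigen presentation and signalling genes. Interferons are also known to slow the division of many cell types. The interferon genes were taken here as 7 lists with 349 measured genes, and all other genes were counted as outside the lists. The luminal keratin Krt18 was not analysed here.

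Of the 5 passing interferon genes of largest difference, 3 had a promoter in the table used and 2 of these held the core of the response element. Windows with 25 bases on each side of the match nearest to the start site are shown for the 6 passing interferon genes of largest difference that hold it, a choice made after their values were seen. Capitals mark the core, which is GAAA, any 2 bases and GAAA again, or its reverse complement. Sequences are those of RefSeq on GRCm38.p6, and each runs along the strand of its gene.
Oas1a (chr5:120907505-120907564, minus strand): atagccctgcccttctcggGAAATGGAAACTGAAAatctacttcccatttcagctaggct
Gbp3 (chr3:142559980-142560039, plus strand): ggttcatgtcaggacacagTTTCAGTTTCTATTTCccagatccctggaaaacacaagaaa
Ifit3b (chr19:34607778-34607837, plus strand): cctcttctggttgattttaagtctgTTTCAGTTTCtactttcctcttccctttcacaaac
Igtp (chr11:58199497-58199556, plus strand): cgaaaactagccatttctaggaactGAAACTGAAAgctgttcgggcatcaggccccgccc
Ddx60 (chr8:61928043-61928102, plus strand): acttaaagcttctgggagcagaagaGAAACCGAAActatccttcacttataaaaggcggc
Bst2 (chr8:71537562-71537621, minus strand): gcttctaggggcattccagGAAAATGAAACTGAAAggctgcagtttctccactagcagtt
Of the 12 genes with the largest gap upward outside the lists, gene models passed over, 9 had a promoter in the table. Piwil4 alone of the 9 held the letters, and its match at base -174 from the start site lies in a run of A and G.
Piwil4 (chr9:14740812-14740871, minus strand): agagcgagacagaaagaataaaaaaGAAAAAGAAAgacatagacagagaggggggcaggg

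Before the results, the label was checked against markers. The basal keratin Krt5 stood at 3.34 and 3.72 on the MaSC control arrays and at 2.89 and 3.55 with IFNα, against -0.78 to 0.13 on the LP arrays. The basal keratin Krt14 lay at 3.36 to 3.74 on the MaSC arrays and at 2.35 to 2.72 on the LP arrays, and the basal factor Trp63 at 1.60 to 2.38 and at -0.33 to 1.48. Markers that name the other fraction were also high: Kit stood at 6.88 to 8.22 on the MaSC arrays and 3.66 to 7.80 on the LP arrays, and Elf5 at 5.58 to 6.28 and 3.58 to 6.25, so these markers did not set the fractions apart. The leukocyte antigen Ptprc ran from -2.83 to -1.83 and the fibroblast receptor Pdgfra from -3.55 to -2.80, both below the reference. Pdgfra does not stand for its list: the 13 fibroblast markers had medians of -1.026 to -0.361 on the MaSC arrays. On MaSC control and IFNα replicate 1 their means were -0.123 and -0.141, beside medians of -0.977 and -1.026. On the replicate 2 arrays the means lay below the medians. On the replicate 1 arrays some fibroblast markers therefore lay above the reference. Several endothelial genes were far above it, such as Cdh5 at 4.97 to 6.24, while the endothelial antigen Pecam1 was not, at -0.88 to -0.01. By array, the 20 basal markers had medians of 0.53 to 0.84 in MaSC and -1.06 to -0.13 in LP. Medians of epidermal differentiation genes were 3.02 to 3.85 and 0.02 to 0.35. Those of endothelial and mural markers were 2.28 to 2.8 and -0.17 to 0.30. These 2 lists set the fractions further apart than the basal markers did. No marker of this check had an adjusted p below 0.05 between IFNα and control in MaSC, and the 20 basal markers had a median difference of 0.00. In whole cultures, fewer cells of a type and less RNA per cell cannot be told apart. On LP control replicate 1 the values spread less than on any other array, with a standard deviation over probes of 0.626 against 1.19 to 1.26.

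In MaSC the genes that passed the test were, with 2 exceptions, on the interferon lists. These lists were chosen with earlier results of these data known, so the overlap is not independent of the values. With the spread estimated from all 8 arrays, limma called 50 genes higher with IFNα, which is 0.229% of the 21794 tested, and 1 lower, which is 0.00459%. Of the 50, 49 were on the interferon lists, which hold 349 of the 21794 genes, and the other was the gene model Gm9706. With the MaSC arrays alone, which leave 2 residual degrees of freedom, 0 genes passed, the lowest adjusted p was 0.0654, and 1169 genes (5.36%) had an unadjusted p under 0.05, of which 644 (2.95%) were higher and 525 (2.41%) lower. Counts below therefore also use a description without a test: a gene is called separated when both IFNα arrays lie beyond both control arrays and the means differ by at least 1. By it 559 genes (2.56%) were higher and 404 (1.85%) lower, and 148 of the higher ones were on the interferon lists. With a minimum of 0.5 the counts were 1280 (5.87%) and 1341 (6.15%), and with a minimum of 2 they were 127 (0.583%) and 24 (0.11%). With the replicate number as a block the 8-array fit called 12 genes higher and 0 lower. Leaving out any 1 of the 4 MaSC arrays left 0 genes past the threshold in the 8-array fit, and leaving out either LP IFNα array left 2.

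Among the genes that passed on all 8 arrays, the largest differences were those of Oas1a, Oasl2, Gbp3, Usp18 and Rtp4. Oas1a, which makes the messenger that activates RNase L, stood at -3.75 and -3.72 in the controls and at 3.28 and 3.11 with IFNα, a difference of 6.93 (8-array SE 0.42, adjusted p = 0.00746 by limma). Usp18, which removes Isg15 from proteins and restrains the receptor, stood at -4.19 and -4.11 against 2.28 and 2.30, a difference of 6.44 with the same adjusted p. In both genes the controls lay far below the reference and the IFNα arrays far above it, with the 2 arrays of a group close together. The other 3 were the oligoadenylate synthetase relative Oasl2, higher by 6.62, the guanylate-binding protein Gbp3 by 6.62 and the chaperone Rtp4 by 6.20. Of the signal path itself, the factors Irf7, Stat2 and Irf9 rose by 5.83, 3.20 and 1.95. The receptor chains were not called: Ifnar1 stood at 0.57 and 0.80 in controls and 0.19 and 0.27 with IFNα, and the groups of Ifnar2 overlapped, at -0.66 and -1.36 against -0.58 and -1.39. The largest difference of all genes, 8.72 for the interferon-inducible gene Ifi27l2a, missed the threshold in the 8-array limma fit (adjusted p = 0.054). So did Ifit1 at 7.48 (0.124), Isg15 at 6.70 (0.075) and Mx1 at 6.62 (0.127). On the LP control arrays, Ifit1 stood at -1.09 and -4.83, Isg15 at -1.09 and -3.81 and Mx1 at -0.55 and -3.78. That spread enters the 8-array SE, which was 1.13 for Ifit1, 0.85 for Isg15 and 1.01 for Mx1. With the MaSC arrays alone the SE was 0.38, 0.39 and 0.32, and the MaSC groups of these genes did not overlap.

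By role, 8 of 28 genes of RNA and DNA sensing passed, with Ddx60 at 5.38 and the helicase Dhx58 at 4.24, and 7 of 29 interferon-inducible GTPases, which attack vacuoles of intracellular microbes, with Igtp at 5.62. Of 36 genes of MHC class I presentation 5 passed and 21 were separated higher. B2m, the light chain of class I, stood at -0.74 and -0.58 against 2.31 and 2.36 (difference 2.99, adjusted p = 0.00742), and H2-T9 rose by 2.31. Of the 36, 6 lay below 0, and H2-Q1 was the 1 gene separated lower. It stood at 4.34 and 3.60 in controls and at 2.30 and 3.09 with IFNα, while in LP its difference was 1.34. The class I genes resemble each other closely, so a probe may read several of them, which was not tested. Of 11 genes of MHC class II presentation 0 passed and their median difference was 0.09, and the class II regulator Ciita stood at 1.67 and 1.44 against 1.87 and 2.29. Of 33 chemokines and ligands 2 passed: Cxcl9, which draws T cells, at -0.91 and -0.53 against 2.61 and 2.37, and Il18bp, a decoy for interleukin 18, at -0.39 and -0.76 against 1.74 and 1.86.

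**Figure D1:**
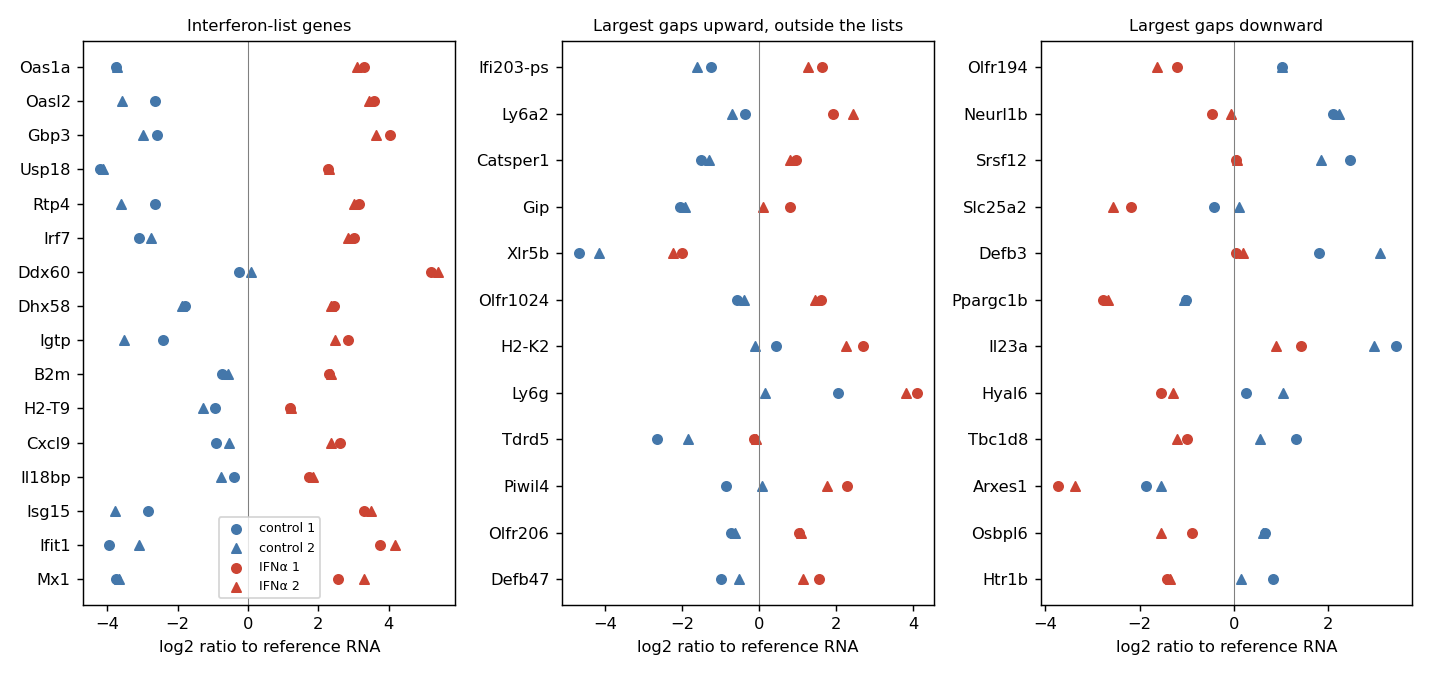
Log2 ratio to the reference RNA (x axis) of named genes (y axis) on the 4 MaSC arrays, blue for control and red for IFNα, circles for replicate 1 and triangles for replicate 2. Interferon-list genes (left) lie up to 7.48 apart in their group means, whereas the largest gaps outside the lists (middle, right), gene models such as Gm9706 left out, separate means by 1.68 to 2.89.

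The make-up of the separated genes shifted with size. Of the 56 genes higher by 3 or more, 55 were on the interferon lists (98.2%), and the exception was Gm9706. The lists were chosen with earlier results of these data known, as stated above. At 2 to 3 the lists held 33 of 71, at 1.5 to 2 they held 28 of 116, at 1 to 1.5 they held 32 of 316 and at 0.5 to 1 they held 25 of 721. In the downward direction no gene reached 3, 24 lay at 2 to 3, 81 at 1.5 to 2 and 299 at 1 to 1.5. Outside the lists, higher and lower genes numbered 38 and 24 at 2 to 3, 88 and 81 at 1.5 to 2, and 284 and 296 at 1 to 1.5. The counts outside the lists depended on each array: with any 1 MaSC array left out, 786 to 889 genes outside the lists met the rule upward and 855 to 997 genes downward, since fewer arrays must then stay apart.

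**Figure D2:**
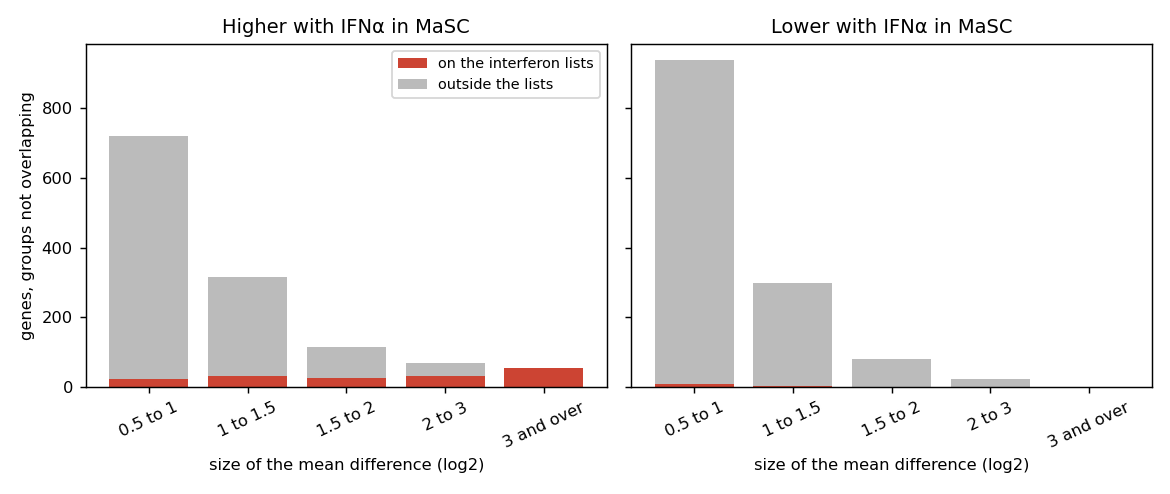
Number of genes whose IFNα and control arrays did not overlap in MaSC (y axis), by size of the mean difference in log2 units (x axis), higher on the left and lower on the right. Red marks interferon-list genes and grey all others: 55 of the 56 genes at 3 and over are on the lists, and 25 of the 721 at 0.5 to 1.

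Gm9706 was the largest rise outside the lists and the only one past the threshold. It stood at -2.69 and -2.21 in the controls and at 2.67 and 2.91 with IFNα, a difference of 5.24 (8-array SE 0.35, adjusted p = 0.00922 by limma). The LP arrays showed a difference of 4.76. It is a gene model with no function named in the tables used here. Its value rests on 1 probe, and whether that probe reads related genes was not tested.

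The rises outside the lists that also appeared in LP included relatives of interferon genes. The pseudogene Ifi203-ps, of the interferon-inducible p200 family, stood at -1.25 and -1.60 in the MaSC controls and at 1.63 and 1.28 with IFNα. Its difference was 2.89 in MaSC (8-array SE 0.48, adjusted p = 0.165 by limma) and 4.08 in LP. Ly6a2, a member of the Ly6 surface protein family, stood at -0.35 and -0.70 against 1.92 and 2.45, a difference of 2.71 with an adjusted p of 0.0806. Ly6g, the neutrophil antigen of the same family, stood at 2.05 and 0.15 against 4.10 and 3.8, and its controls lay 1.90 apart. H2-K2, a class I gene outside the list, stood at 0.45 and -0.10 against 2.71 and 2.25, with an adjusted p of 0.0574. The groups of all 4 genes were apart on the MaSC arrays, and none of the 4 passed on all 8 arrays. Each has close relatives among interferon genes or class I genes, and whether its probe reads them was not tested.

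Genes of complement formed a further set. C2, the protease of the classical pathway, stood at 0.44 and -0.14 in controls and at 2.57 and 2.08 with IFNα, a difference of 2.18 with an adjusted p of 0.162, and differed by 2.43 in LP. Its counterpart of the alternative pathway, Cfb, stood at 2.29 and 1.58 against 3.29 and 2.98, and differed by 1.93 in LP. C4b stood at -1.25 and -1.52 against 0.62 and -0.24, and the inhibitor vitronectin, Vtn, at 0.76 and 0.42 against 2.67 and 1.57, with no such separation in LP. These 4 of 21 measured genes of complement and the acute phase were separated higher, beside 2.56% of all genes. The median of the list was 0.36 and 0 members passed. That median was 0.14 with the highest-mean probe per gene and 0.05 without MaSC IFNα replicate 1. The acute phase protein haptoglobin, Hp, was the lowest, at 2.81 and 1.87 against 2.14 and -0.18, with overlapping groups.

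Other genes outside the lists that differed by at least 1.5 in both populations were picked after their values were seen. Besides gene models there were 12, the ones above included (Ifi203-ps, Ly6a2, Ly6g, H2-K2 and C2). Slfn10-ps, a pseudogene of the schlafen family of interferon-induced growth regulators, stood at 0.32 and 0.19 against 1.94 and 1.76. The class I gene H2-Q3 stood at 0.23 and -0.61 against 1.57 and 1.25. Both had values above every control on both IFNα arrays, as the rule asked. Tdrd5, a tudor protein of the germ line, stood at -2.64 and -1.84 against -0.12 and -0.09, but its 3 probes differed by 0.46 to 3.48. Fbxw17, an F-box protein, differed by 1.67 in MaSC, Adra2c, an adrenergic receptor, by 2.02, Hdc, which makes histamine, by 1.55, and Ppp4r4, a phosphatase subunit, by 2.19. Below 1.5, the mRNA cap methyltransferase Cmtr1, known in humans as an interferon-induced gene, stood at -0.42 and -0.88 against 0.83 and 0.55, and the RNA helicase Ddx24 at 0.38 and 0.44 against 1.62 and 1.75.

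The other genes with large gaps upward in MaSC were not separated by at least 1 in LP. Catsper1, a calcium channel subunit of sperm, stood at -1.50 and -1.30 in controls and 0.96 and 0.80 with IFNα (difference 2.28, adjusted p = 0.0574), beside 0.38 in LP. The gut hormone gene Gip stood at -2.06 and -1.94 against 0.80 and 0.10. Xlr5b, of an X-linked lymphocyte-regulated family, stood at -4.68 and -4.16 against -2.00 and -2.24. Its LP difference of -1.73 rested on LP control replicate 1. The LP groups overlapped, at -0.45 and -4.17 in controls and -4.17 and -3.89 with IFNα. The receptor genes Olfr1024 and Olfr206 and the defensin gene Defb47 differed by 2.02, 1.74 and 2.09. Piwil4, which loads small RNAs in the male germ line, stood at -0.86 and 0.07 against 2.27 and 1.76, and differed by 0.93 in LP. Most of these genes are known for work in sperm, germ cells, smell or the gut, and 0 of them passed on all 8 arrays. Among the 1097 olfactory receptor genes measured, 49 (4.47%) were separated higher and 31 (2.83%) lower, beside 2.56% and 1.85% of all genes.

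The LP arrays share no sample with the MaSC comparison and were set beside it. Of the 148 separated interferon genes, 132 (89.2%) were also separated higher in LP. Of the 411 rises outside the lists 55 (13.4%) were, beside 3.41% of all genes, and 21 (5.11%) were separated lower, beside 2.98%. Of the 404 falls 36 (8.91%) were also separated lower and 30 (7.43%) higher in LP. The sign in LP was positive for 54.0% of the rises outside the lists and negative for 52.0% of the falls, beside 50.4% and 49.6% of all genes. Without LP control replicate 1 the shared rises outside the lists came to 71 (17.3%, beside 4.68% of all genes) and the shared falls to 56 (13.9%, beside 4.36%).

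**Figure D3:**
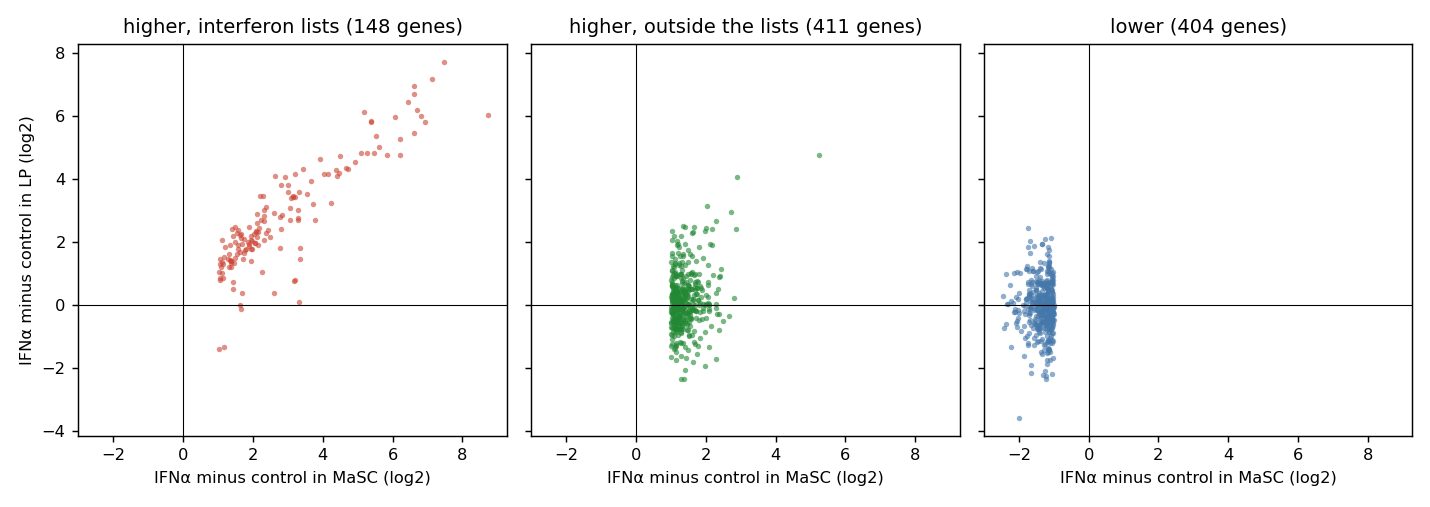
Mean difference, IFNα minus control, in MaSC (x axis) and in LP (y axis), in log2 units, for the genes separated by treatment in MaSC, 1 point per gene. The 148 interferon-list genes lie along a rising band, while the 411 other higher genes and the 404 lower genes spread about 0 in LP, with Gm9706 at 5.24 and 4.76.

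A few interferon-list genes were separated in MaSC and not in LP, though the difference between the populations was not tested. Batf2, a partner of the factor Irf1 in activated macrophages, stood at -0.74 and -0.72 against 2.06 and 1.66 in MaSC and differed by 0.37 in LP. Cxcl9 differed by 3.21 in MaSC and by 0.80 in LP. The schlafen gene Slfn4, known from myeloid cells, differed by 3.31 against 0.10.

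One fall passed the threshold. Olfr194, an olfactory receptor gene, stood at 1.02 on both controls and at -1.22 and -1.62 with IFNα, a difference of -2.44 (8-array SE 0.26, adjusted p = 0.0421 by limma). In LP its groups overlapped and the difference was 0.27. Its call was lost with quantile normalization, with the highest-mean probe per gene, with the replicate number as a block, and with any MaSC array or either LP IFNα array left out. The gene belongs to a large family of similar genes, and its single probe was not checked for others.

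The remaining falls of largest gap lay between -2.43 and -1.68 and 0 of them passed. Neurl1b, a ubiquitin ligase of the Notch pathway, stood at 2.10 and 2.22 in controls and at -0.46 and -0.07 with IFNα. Il23a, a subunit of the cytokine interleukin 23, stood at 3.43 and 2.97 against 1.43 and 0.89, a difference of -2.04 with an adjusted p of 0.999 on all 8 arrays and 0.46 on the MaSC arrays. In LP its difference was 1.05 and its groups overlapped, at 1.09 and 3.56 against 3.32 and 3.44. That LP difference rested on LP control replicate 1. Ppargc1b, a coactivator of mitochondrial genes, stood at -1.02 and -1.07 against -2.79 and -2.67. The splicing factor Srsf12, the ornithine carrier Slc25a2, the defensin Defb3, the hyaluronidase Hyal6, the Rab regulator Tbc1d8 and the serotonin receptor Htr1b differed by -2.10, -2.21, -2.34, -2.07, -2.04 and -1.87. Osbpl6, a lipid-binding protein, differed by -1.86, but its 2 probes gave -2.86 and -0.86. Against these gaps in MaSC, the LP differences of Srsf12, Slc25a2, Defb3, Tbc1d8 and Htr1b lay within -0.17 to 0.12, while those of Neurl1b, Osbpl6, Hyal6 and Ppargc1b were -0.74, -0.69, -0.57 and -0.26.

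Only 4 falls reached 1.5 in both populations, named here after their values were seen. Cxcl5, a chemokine that draws neutrophils, stood at 1.74 and -0.09 in MaSC controls and at -0.57 and -1.78 with IFNα, and in LP at 3.84 and 3.42 against 0.08 and -0.02. Its LP groups were thus much further apart than its MaSC groups. Arxes1, a gene of fat cell differentiation, stood at -1.85 and -1.54 against -3.74 and -3.37 in MaSC, and differed by -1.63 in LP. Its near-identical copy Arxes2 differed by -1.15, and the pair may share probes. The amino acid transporter Slc6a15 and the spindle protein Troap differed by -1.65 and -1.65 in MaSC. Of the 31 genes of NF-κB and inflammatory cytokines 24 lay below 0, beside 12770 of all 21794 genes, with a median of -0.32. The median was -0.01 without MaSC control replicate 1 and 0.13 without MaSC IFNα replicate 2. Il23a and Cxcl5 were separated lower while the adhesion molecule Vcam1 was higher by 1.00. Replicates differed more than treatments for some of them: the acute phase gene Saa2 stood at 6.40 and 1.91 in controls and at 6.20 and 1.72 with IFNα.

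Small falls ran through the genes of cell division. Of 31 genes of the mitotic cell cycle 29 lay below 0, beside 12770 of all 21794 genes. Their median difference was -0.44, beside -0.05 over all genes. The groups of 24 were lower without overlap, beside 20.3% of all genes. The proliferation antigen Mki67 stood at -1.53 and -2.01 in controls and at -2.32 and -2.28 with IFNα. Cdc20, which activates the anaphase-promoting complex, stood at -0.38 and -0.74 against -1.27 and -1.20. The survivin gene Birc5 stood at -0.03 and -0.52 against -0.92 and -0.83, and the centromere histone Cenpa at -0.61 and -0.71 against -1.27 and -1.24. In these 4 genes MaSC control replicate 1 was the highest array. Neither fit called any member of the list, and 0 members differed by 1.

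Of 29 genes of DNA replication 28 lay below 0, beside 12770 of all 21794 genes, with a median of -0.33. The groups of 16 were lower without overlap, beside 20.3% of all genes, and those of 1 were higher. The helicase subunit Mcm2 stood at -1.04 and -1.41 against -1.42 and -1.69, and the clamp Pcna at -0.16 and -0.44 against -0.59 and -0.50. The thymidine kinase Tk1 had the largest gap, 0.09 and -0.32 against -0.83 and -1.26, though its 3 probes differed by -1.94 to -0.32. Without MaSC control replicate 1 the medians came to -0.21 for mitosis and -0.15 for replication, and without MaSC control replicate 2 to -0.68 and -0.52. In LP the medians were -1.02 and -0.56, and 17 of the 31 mitotic genes were separated lower there, beside 2.98% of all genes. By array the LP mitotic medians were -0.59 and -1.32 in controls and -2.00 and -2.06 with IFNα. The replication medians were -0.90 and -1.5 against -1.61 and -1.82. LP control replicate 1, the array of smaller spread, was the higher control in both, so the size of the LP falls depends on it. The difference between the populations was not tested.

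**Figure D4:**
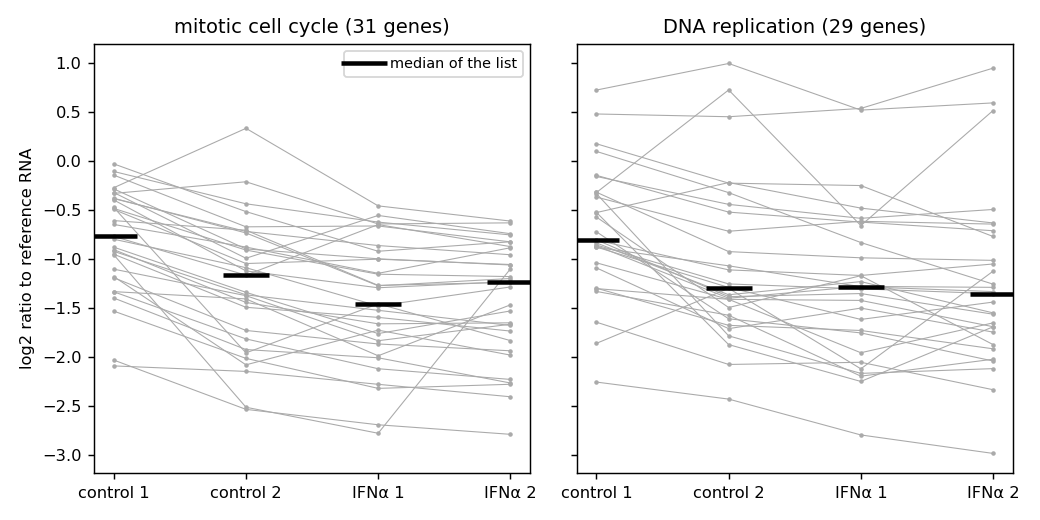
Log2 ratio to the reference RNA (y axis) of the genes of the mitotic cell cycle (left) and DNA replication (right) on the 4 MaSC arrays (x axis), 1 grey line per gene, with the median of the list as a black bar. The mitotic medians are -0.77 and -1.17 in controls and -1.46 and -1.24 with IFNα, and the replication medians -0.81, -1.30, -1.28 and -1.35, with control replicate 1 the highest array in both.

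None of the 23 lists outside the interferon genes had a member past the threshold in either fit. Cholesterol and fatty acid synthesis had a median of -0.20, with 22 of 25 genes below 0, beside 12770 of all 21794 genes. Milk and secretory genes had one of -0.35, with 9 of 13 below 0, beside the same share of all genes. With 1 MaSC array left out the first ran from -0.58 (without IFNα replicate 2) to 0.04 (without IFNα replicate 1), and the other from -0.41 (without IFNα replicate 2) to -0.05 (without control replicate 1). Luminal progenitor markers had a median of -0.18, or 0.19 without control replicate 1 and -0.43 without IFNα replicate 1, among them Kit at 7.56 and 8.22 against 6.88 and 7.28. Ribosomal proteins had a median of -0.04 and a range of -0.18 to 0.15. Endothelial and mural markers had a median of 0.23, or 0.09 without IFNα replicate 1 and 0.51 without IFNα replicate 2, with the vessel receptor Tie1 at 1.96 and 2.32 against 4.17 and 3.56. The basal and leukocyte lists had medians of 0.00 and -0.05.

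The response element core was counted in the promoters of each set of genes, as a description without a test. Over windows of 300 bases, 250 before to 50 after the start, this core on either strand occurred in 21 of 37 passing interferon genes with a promoter in the table (56.8%) and in 48 of 115 separated ones (41.7%), beside 3.96% of all tested genes. Of the rises outside the lists it occurred in 1 of 39 (2.56%) that were also separated in LP and in 20 of 264 (7.58%) that were not. Of the falls it occurred in 11 of 315 (3.49%). TTCNNNGAA, the core of the gamma-activated site that Stat dimers bind, occurred in 24.3% of the passing interferon genes, 19.1% of the separated ones and 9.13% of all genes. Overlapping matches were allowed, and matches of both motifs may share bases. A match describes these letters and not a site in use.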

How the data were processed

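Total RNA labelled with Cy5 was hybridised against a universal mouse reference RNA labelled with Cy3, per the labels' protocols. The submitters' processing notes name Agilent Feature Extraction 11.0. The deposited values are log ratios of the authors, used as log2 of sample over reference. Base, normalization and centring are not given in the sources used here. Base 2 was assumed, since the values run too far for log10 ratios of scanner signals, and the dyes gave the direction. Another base would multiply every value by 1 constant. Probe intensities were not used, so signal over background is unknown, and the number of arrays limits the precision.

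Of 55681 probes 30626 carried 1 gene symbol and 25055 none, and 347 were empty on at least 1 array. The 30398 named probes with 8 values were averaged by symbol into 21794 genes, 6730 of them from several probes, and 99 genes with an empty probe were left out. IFNα and control were compared by limma 3.58.1 (R 4.3.3), two-sided, without a replicate block, with Benjamini-Hochberg adjustment over all genes and a threshold of 0.05, on the 4 MaSC arrays (2 residual and 1.53 prior degrees of freedom) and on all 8 with 1 mean per group (4 and 1.98). Sequences came from RefSeq promoters of GRCm38.p6. The members and the 30 lists (876 genes tested, 80 listed names not) were chosen with earlier results of these data known.

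Named genes were those outside the interferon lists or lower that passed or were among the 12 of largest gap (distance between the nearest arrays of the groups) in each direction, the 5 largest passing interferon genes, up to 2 passing members of each interferon list, the member of largest gap in every other list, and a short list of interferon and population markers. Gene models were passed over, except Gm9706, and other genes were named after their values were seen. The fits were tested on simulated data of this size. Of 50 genes shifted by 1, 2, 3 and 5 the 8-array fit recovered 0%, 30%, 70% and 86%, with 2 false among 95 calls, and the 4-array fit 0%, 0%, 2% and 58%. The simulated noise was normal and independent between arrays, with 1 spread per gene. It held neither the smaller spread of LP control replicate 1 nor the correlation of same-numbered arrays. The shares may therefore not hold for the data, where the 4-array fit called 0 genes.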

Additional observations from a re-analysis of the deposited data

Results flagged for a closer look

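Among the named genes, 4 had both IFNα arrays on 1 side of both controls in MaSC and on the opposite side in LP. This difference between the populations was not tested. Over all genes the MaSC groups did not overlap in 11.7% (higher) and 20.3% (lower). The share of all genes with opposite sides in LP was not counted. Each of the 4 was named for the largest MaSC gap of its list. Mfng, a Notch-modifying glycosyltransferase, differed by 0.857 in MaSC and -0.806 in LP. Egln1, the oxygen-sensing prolyl hydroxylase, differed by -0.617 and 0.838. The casein gene Csn1s2b differed by -0.983 and 0.504. The lipid droplet gene Cidec differed by -1.718 and 0.352, and its 2 probes gave -3.86 and 0.42 in MaSC.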

How the results depend on the processing

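The 8-array fit called 50 genes higher and 1 lower. Median centring gave 32 higher and 1 lower, all 33 among the 51. The highest-mean probe per gene and quantile normalization gave 0 lower. Leaving out 1 array gave 0 to 56 higher and 0 to 1 lower, with a lowest adjusted p of 0.00366 to 0.123. Leaving out either LP control array raised the calls to 57, of which 38 were among the 51. For the genes shared with LP, leaving out LP control replicate 1 was chosen after seeing the data, and gave 71 rises outside the lists and 56 falls in place of 55 and 36. The 4-array fit called 0 genes under every alternative run, with lowest adjusted p from 0.0507 (trend and robust options) to 0.93 (without MaSC IFNα replicate 1). The replicate block gave 12 higher and 0 lower in the 8-array fit, all among the 51, and a lowest adjusted p of 0.294 in the 4-array fit. The deviations of same-numbered MaSC control and IFNα arrays correlated at 0.305 and those of LP at 0.041, and over all probes MaSC control 1 correlated at 0.818 with IFNα 1 and 0.793 with control 2. The labels do not say what a number stands for, and 2 numbers are too few to settle whether they pair the samples. At a difference of 0.5 the rises outside the lists came to 1107 and the falls to 1341, and at 2 to 39 and 24, with 88 interferon genes. Leaving out 1 MaSC array gave 786 to 889 rises outside the lists and 855 to 997 falls. With the highest-mean probe the differences of Ndufb5 (-0.219), Lcor (0.009), Trp63 (0.044) and Krt8 (-0.041) changed sign. With 1 MaSC array left out, Ifnar2 ran from -0.379 to 0.432, Lcor from -0.257 to 0.048, Krt5 from -0.638 to 0.022, Trp63 from -0.511 to 0.145, Krt8 from -0.483 to 0.613, Epcam from -0.076 to 0.139 and Ptprc from -0.404 to 0.596. The cause was not tested. The median difference of all genes was -0.0474 as deposited and -0.0099 after scaling.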

Other observations

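Further fat cell genes were measured on the MaSC arrays. The adipokine gene Adipoq stood at 3.71 and 3.74 in MaSC controls and at 2.97 and 2.81 with IFNα, and the lipid droplet coat gene Plin1 at 2.84 and 3.87 against 1.64 and 2.63. Fabp4, a fatty acid carrier of fat cells, overlapped, at 4.86 and 5.09 against 4.68 and 5.05. Of 13 adipocyte and red cell markers 10 lay below 0, beside 12770 of all 21794 genes, and 0 passed. Their median was -0.13, or -0.30 to -0.03 with 1 MaSC array left out.

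Probes without a gene symbol were tested in a fit over all probes. Of 24936 with 8 values, limma called 0 on all 8 arrays, where the named probes gave 22 calls, all higher, and 1352 of the unnamed had an unadjusted p under 0.05. By the rule for separated genes 976 (3.91%) were higher and 869 (3.48%) lower with IFNα.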
